A study of Mus musculus with 146 samples.

Results

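The 10 genes described here encode the enzymes that build long-chain fatty acids in the cytosol and then elongate or desaturate them: Acly, Acss2, Acaca, Fasn, Elovl6, Scd1, Scd2, Elovl5, Fads1 and Fads2. They were chosen by name, as the listed enzymes of fatty acid synthesis and desaturation, and all 10 were found among the 22721 genes of the count table. This choice, and that of the gene lists used below, was made with earlier results of these data known. The RNA of the 10 genes was measured in 146 libraries of bone marrow-derived macrophages, which are macrophages grown from marrow cells in culture. The donors were outbred mice of the stock Crl:CFW(SW)-US_P08 (CFW) at 16 weeks of age, with 86 libraries labelled female and 60 labelled male. All cultures had been kept for 5 days in medium containing L929-conditioned medium, a source of the growth factor that drives macrophage differentiation, and none was treated. The libraries carry 7 plate labels, with 6 libraries on plate 1 and 22 to 24 on each other plate, and 28 collection date labels, of 1 to 14 libraries each. No group was given a treatment or genotype in the labels, so the comparisons are between libraries, sexes, plates and dates.

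Fatty acid synthesis starts from cytosolic acetyl-CoA, which ATP citrate lyase (Acly) makes from citrate and acetyl-CoA synthetase (Acss2) makes from acetate. Acetyl-CoA carboxylase (Acaca) turns it into malonyl-CoA, and fatty acid synthase (Fasn) joins these units into palmitate. Elovl6 lengthens saturated and monounsaturated chains, and the stearoyl-CoA desaturases Scd1 and Scd2 place the first double bond. Fads2 and Fads1 are the delta-6 and delta-5 desaturases of the polyunsaturated branch, with Elovl5 as the elongase between them. Most of these genes are known targets of the sterol regulatory element binding proteins (SREBPs), and several, Scd1 and Scd2 among them, also of the liver X receptors (LXRs), which sense oxysterols. In macrophages the pathway supplies membrane lipid and substrates for lipid mediators.

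The genes lie on 5 chromosomes (GRCm38, GENCODE M21). Acly (11:100476353-100528000, minus strand), Acaca (11:84129672-84401651, plus strand) and Fasn (11:120805846-120824547, minus strand) share chromosome 11. Scd1 (19:44394455-44407879, minus strand) and Scd2 (19:44293674-44306864, plus strand) lie 87.6 kb apart, and Fads1 (19:10182888-10196877, plus strand) and Fads2 (19:10062765-10101746, minus strand) lie 81.1 kb apart on the same chromosome. Elovl5 is at 9:77917364-77984519 and Elovl6 at 3:129532355-129638495, both on the plus strand. Acss2 (2:155517948-155585724, plus strand) overlaps Ggt7 and Gss on the minus strand, and Acaca overlaps Gm11437 on the minus strand. The labels do not say that the counting used strand, so reads within those overlaps cannot be assigned to 1 gene.

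The sequence just before the start of 4 genes is shown because these genes span the patterns described further on: Fasn and Acly varied together most closely among the synthesis enzymes, whereas Elovl5 and Acss2 varied apart from Fasn. Each line gives the 250 bases before the RefSeq start (GRCm38.p6), read 5′ to 3′ on the gene's strand. Capitals mark the CCAAT box (CCAAT), the GC box (GGGCGG) and the E-box (CACGTG), on either strand.
Fasn, chr11:120824548-120824797, minus strand: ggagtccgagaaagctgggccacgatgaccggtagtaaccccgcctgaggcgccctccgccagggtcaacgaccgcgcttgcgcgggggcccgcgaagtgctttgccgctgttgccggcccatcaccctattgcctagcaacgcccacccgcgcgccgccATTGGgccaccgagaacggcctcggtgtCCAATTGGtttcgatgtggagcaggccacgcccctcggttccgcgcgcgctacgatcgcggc
Acly, chr11:100528001-100528250, minus strand: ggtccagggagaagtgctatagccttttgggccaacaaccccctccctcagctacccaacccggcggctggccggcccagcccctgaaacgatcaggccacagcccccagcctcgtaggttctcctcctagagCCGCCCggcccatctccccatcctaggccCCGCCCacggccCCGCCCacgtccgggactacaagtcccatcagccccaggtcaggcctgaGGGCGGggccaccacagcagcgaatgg
Elovl5, chr9:77917115-77917364, plus strand: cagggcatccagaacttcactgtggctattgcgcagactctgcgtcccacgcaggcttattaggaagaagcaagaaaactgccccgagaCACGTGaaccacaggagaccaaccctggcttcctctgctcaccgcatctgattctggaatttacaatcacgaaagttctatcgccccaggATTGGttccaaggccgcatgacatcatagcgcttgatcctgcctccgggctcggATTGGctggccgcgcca
Acss2, chr2:155517793-155518042, plus strand: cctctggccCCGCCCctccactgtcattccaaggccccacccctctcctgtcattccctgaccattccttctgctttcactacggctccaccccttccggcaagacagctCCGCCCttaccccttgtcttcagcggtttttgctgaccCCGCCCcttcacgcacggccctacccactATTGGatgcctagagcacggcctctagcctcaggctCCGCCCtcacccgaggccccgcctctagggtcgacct

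Over the whole window of 250 bases before to 50 after the start, Fasn held 3 CCAAT boxes, at -90, -62 and -59 from the start, of which the last 2 overlap. Elovl5 held 2 CCAAT boxes and 1 E-box, and Acss2 held 1 CCAAT box and 5 GC boxes, 4 of them in the stretch shown. Acly held 4 GC boxes before the start and 1 CCAAT box at 37 after it. Fads2 held 1 GC box, and the windows of Acaca and Elovl6 held none of these letters. The Acaca window (11:84195188-84195487) lies inside the gene span given above. The sequence before the start of that span was therefore not searched. The CCAAT box occurred in 37.4% of the 32851 promoter windows of this length, the GC box in 35.7% and the E-box in 7.15%. A sterol regulatory element searched as TCACNCCAC occurred in 1.24% of them and in none of the 7 windows examined. These are matches of letters, and no binding was measured.

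All 10 genes were measured in every library but 1, in which Scd1 had 0 counts. Depth ran from 14.5 M to 120.9 M counts per library, with a median of 43.8 M, and no member's level was associated with depth (limma, adjusted p from 0.401 to 0.982; 0% of the 10893 genes tested were, and 0.155% on the log2 CPM scale used for Scd1). The libraries carried the 7 macrophage markers searched for, with a summed level from 11380 CPM upward (CPM, counts scaled to the same library total). Lyz2 held most of that sum, with a mean of 10000 CPM against 15200 CPM for all 7. Of the 50-base stretches of Itgam, another of the 7, 66.3% also occur in another annotated gene. The 5 adipocyte markers reached 0.121 CPM summed at most, with a median of 0. Granulocyte precursor markers were spread widely, from 75.3 to 1698 CPM summed over 8 genes, and 6 stromal markers ran from 0 to 68.1 CPM. In 6 libraries the Y-linked genes went against the labelled sex, 4 labelled female and 2 labelled male. They were kept, and the tests of sex are also given without them. In such mixed RNA, fewer cells of a type and less RNA per cell cannot be told apart.

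The acetyl-CoA enzymes differed in level and in spread. Acly was the member with the highest level and 1 of the 2 steadiest, at a mean of 246.6 ± 20.1 CPM (SD, n = 146), with a lowest library at 190 CPM, a median of 247.7 and a highest at 300.3. The library at percentile 90 had 1.24 times the level at percentile 10, a ratio used below as the percentile ratio. Acss2 had a mean of 21.3 ± 6.10 CPM, from 7.66 over a median of 21.2 to 41.6 CPM, and a percentile ratio of 2.22. Per kilobase of merged exon Acly had 46.7 CPM and Acss2 2.09 CPM. The 2 routes to acetyl-CoA thus stood far apart in RNA level, and the route from acetate was the more variable between libraries.

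Acaca, whose product commits acetyl-CoA to fatty acids, had 21.5 ± 2.87 CPM, from 14.3 over 21.3 to 29.8 CPM. Its value is uncertain, because 30.4% of its 50-base stretches also occur in another annotated gene. Fasn had 136 ± 34.8 CPM, from 51.9 over 135.5 to 219.5 CPM, a percentile ratio of 1.99. Elovl6 had 21.2 ± 4.65 CPM, from 9.29 over 21.1 to 37 CPM. Fasn and Elovl6 therefore varied by more than Acaca, whose percentile ratio was 1.39.

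Scd2 had the highest CPM of the 4 desaturases and the widest spread of the members above 100 CPM, with 181 ± 98.4 CPM, from 62.3 over 169.7 to 609 CPM. Scd1, the stearoyl-CoA desaturase of liver and fat, was present at a small share of it. Scd1 had 2.62 ± 3.88 CPM, from 0 over 1.31 to 29.9 CPM, with under 10 counts in 12 libraries and under 5 in 5 of these. The count of 0 allows up to 3 counts, or 0.0649 CPM, in that library, for counting error only. Expressed as a percent of Scd2 CPM, Scd1 had a median of 0.74% over the libraries and a highest value of 7.6%. The 2 genes share 145 of 4888 and 5461 50-base stretches, so nearly all of each gene's sequence tells it from the other. Because Scd1 is so small a share of Scd2, even a few Scd2 reads counted as Scd1 could weigh in its level. The part of such reads was not tested.

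In the polyunsaturated branch, Fads1 had 139.8 ± 18.6 CPM, from 83.9 over 140.2 to 191.6 CPM. Fads2, the enzyme that acts first in the branch, had 14.4 ± 6.33 CPM, from 3.83 over 13.7 to 37.6 CPM. Fads1 stood above Fads2 in every library, by 3.86-fold at the least and 10.2-fold at the median, before any allowance for gene length. Elovl5 had 121.8 ± 11.0 CPM, from 98.8 over 121.5 to 155.4 CPM. Fads2 thus had a percentile ratio of 2.93, against 1.41 for Fads1 and 1.24 for Elovl5.

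**Figure D1:**
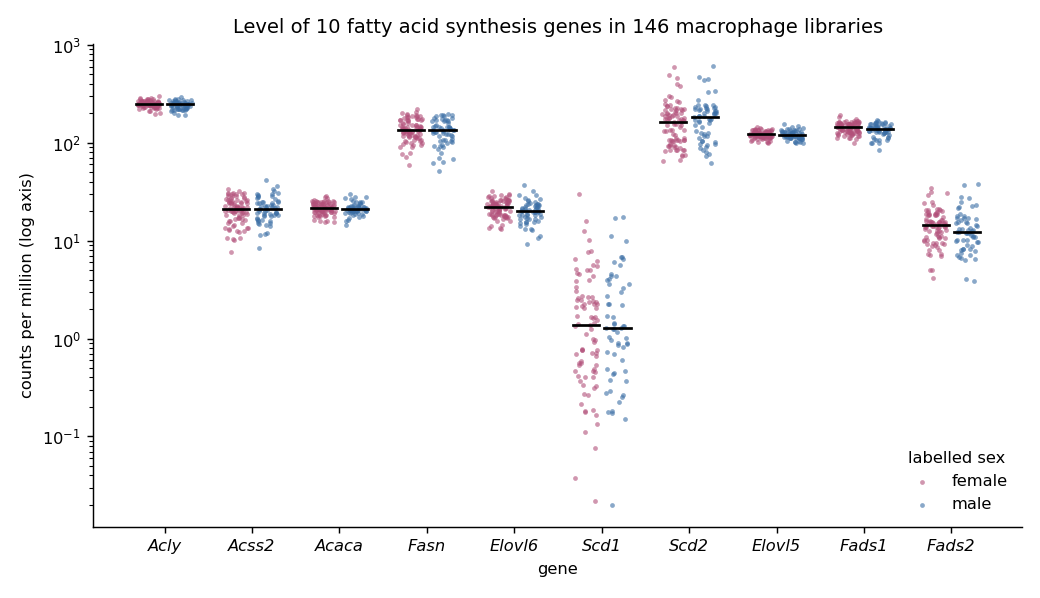
Level of each gene in each library in CPM on a log axis, by labelled sex, with a black bar at the median of each sex. Scd1 spreads from 0 (1 library, drawn at the lower edge) to 29.9 CPM, whereas Acly stays between 190 and 300.3 CPM.

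Per kilobase of merged exon the order of the medians was Acly (46.9 CPM per kb), Elovl5 (34.5), Scd2 (31.1), Fads1 (29.1), Fasn (12.4), Fads2 (4.15), Elovl6 (3.28), Acss2 (2.08), Acaca (1.25) and Scd1 (0.268). The middle 80% of libraries did not overlap between Acly and Elovl5, between Fads1 and Fasn, or between Fasn and Fads2. All other neighbours in this order overlapped and are not separated beyond their spread. The order depends on the length used: per kilobase of the longest transcript, mean Acss2 (5.90) lay above Fads2 (4.57) and Elovl6 (3.56), and Fads1 (40.4) above Scd2 (33.2). Relative to all genes, after removal of plate and sex, Scd1 lay at percentile 99.5 of the spread between libraries, Scd2 at 98, Fads2 at 96.9, Acss2 at 93.1 and Fasn at 92.1. Elovl6 was at 84.1, Fads1 at 55.5, Acaca at 46.6, Elovl5 at 23 and Acly at 7.91. The desaturases Scd1, Scd2 and Fads2 were thus among the most variable genes, and Acly among the steadiest. Percentiles for Scd1 come from log2 CPM, because the deposited VST table (variance-stabilised log2 values) does not hold it.

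No member passed the test between the sexes (edgeR quasi-likelihood test, plate as covariate, Benjamini-Hochberg adjusted p over all genes; 5.06% of 12877 genes passed). At an unadjusted p under 0.05 there were 2 members, against 20% of all genes. Elovl6 averaged 21.9 ± 4.16 CPM over the 86 female libraries and 20.1 ± 5.13 CPM over the 60 male ones (SD). The fitted log2 difference, males less females, was -0.14 ± 0.05 (SE) and did not pass (edgeR adjusted p = 0.0871). Fads1 differed by -0.06 ± 0.03 (SE, adjusted p = 0.206). Leaving out those 6 mismatched libraries gave -0.142 for Elovl6 (edgeR adjusted p = 0.0842) and -0.07 for Fads1 (adjusted p = 0.121), with 0 members and 7.66% of genes called. With date in place of plate as the covariate, Elovl6 (-0.178, adjusted p = 0.0101) and Fads2 (-0.322, adjusted p = 0.0161) passed, beside 4.91% of all genes. With lane within plate, Elovl6 and Fads1 passed, beside 7.25% of genes. DESeq2 and limma voom called no member, beside 5.93% and 5.72% of all genes. The effect of sex did not differ between plates for any member (0 of 10 members, with adjusted p of 0.996 for each; 0.06% of genes passed), and at an unadjusted p under 0.05 there was no member either. Without the 6 libraries that test again called 0 members, and 0.015% of genes.

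Every member differed between collection dates. All 10 passed the test over the 28 dates (edgeR, sex as covariate), where 81.3% of 13708 genes did. With plate also in the model 9 of 10 passed, against 62.6% of genes. The exception was Acss2 (adjusted p = 0.115). In the opposite direction, no member differed between plates once date was in the model (9.6% of genes did; Acaca and Elovl6 reached an unadjusted p under 0.05, with adjusted p of 0.123 each), although 9 of 10 differed between plates without it (71.4% of genes; Acaca at adjusted p = 0.111). DESeq2 also called 9 by plate, with 73.6% of genes. Only 10 of the 28 date labels occur on more than 1 plate, and the test of plate within date rests on those. It therefore does not show that the plate differences were date differences. The smallest adjusted p by date was that of Scd2 (3.68e-13), followed by Fads2 (5.64e-10) and Fasn (1.65e-08). What a date label shares, such as medium lot or operator, is not given in the labels.

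The share of each member's variance that date accounted for, adjusted for the number of dates, was 50.7% for Scd2, 40.1% for Fasn and 39.4% for Fads2, against a median of 26.6% over all genes. It was 32.4% for Acly, 31.9% for Elovl6, 30.1% for Elovl5, 25.8% for Fads1, 21.5% for Acss2 and 15.9% for Acaca. Scd1, on the log2 CPM scale, had 35.3%, where the median gene had 24.5%. At the date level Scd2, Fasn, Fads2, Acly, Elovl6 and Elovl5 thus stood above the median gene, and Fads1, Acss2 and Acaca below it. Scd1 stood above the median of its own scale.

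The highest Scd2 levels came from 1 date. The 14 libraries of the date label 16/09/2010 had a mean of 351.4 ± 159 CPM of Scd2, from 132.5 over 331.1 to 609 CPM, and 7 of the 10 libraries with the most Scd2 were among them. Over the 17 dates with at least 4 libraries, date means of Scd2 ran from 89.8 CPM (2010-04-11, n = 5) to that value, a 3.91-fold range. Among those 17 dates it also had the highest mean of Scd1 (6.39 CPM), Fads2 (21.2 CPM), Elovl5 (134.1 CPM), Elovl6 (26.2 CPM), Acss2 (24.4 CPM), Acaca (23.8 CPM) and Acly (269.6 CPM). Fasn had 168 CPM there, close to its highest date mean. Granulocyte precursor markers summed to a median of 315.5 CPM on that date and 330.7 CPM on all others, and stromal markers to 1.94 and 2.48 CPM. Without these 14 libraries 10 of 10 members again differed between dates, as did 80.1% of genes.

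Fasn was lowest on another date, on which Scd2 was not low. The 5 libraries of 22/07/2010 had 51.9, 59.5, 67.7, 69.4 and 102 CPM of Fasn, a mean of 70.1 ± 19.2 CPM. Among the 17 dates with at least 4 libraries this was also the lowest for Acly (209.6 CPM), Elovl6 (12.5 CPM), Fads1 (100.3 CPM) and Acaca (17.5 CPM). Their Scd2 was 168.9, 173.2, 198.8, 215.9 and 236.9 CPM, where the median of all libraries was 169.7 CPM. The highest date for Fasn was 14/04/2011, at 168.3 ± 25.2 CPM (n = 10), and Fasn on that date did not overlap Fasn on 22/07/2010. The 5 libraries came from plates 1 and 2. Mitosis genes summed to a median of 1998 CPM on that date, against 2737 CPM over all libraries. Dendritic cell markers had 11.4 CPM against 4.99, lymphocyte markers 4.22 against 2.81, granulocyte precursor markers 425.6 against 328.7 and macrophage markers 17520 against 14910. The macrophage sum is mostly Lyz2. The part of these markers and of the mitosis genes in the low Fasn was not tested.

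**Figure D2:**
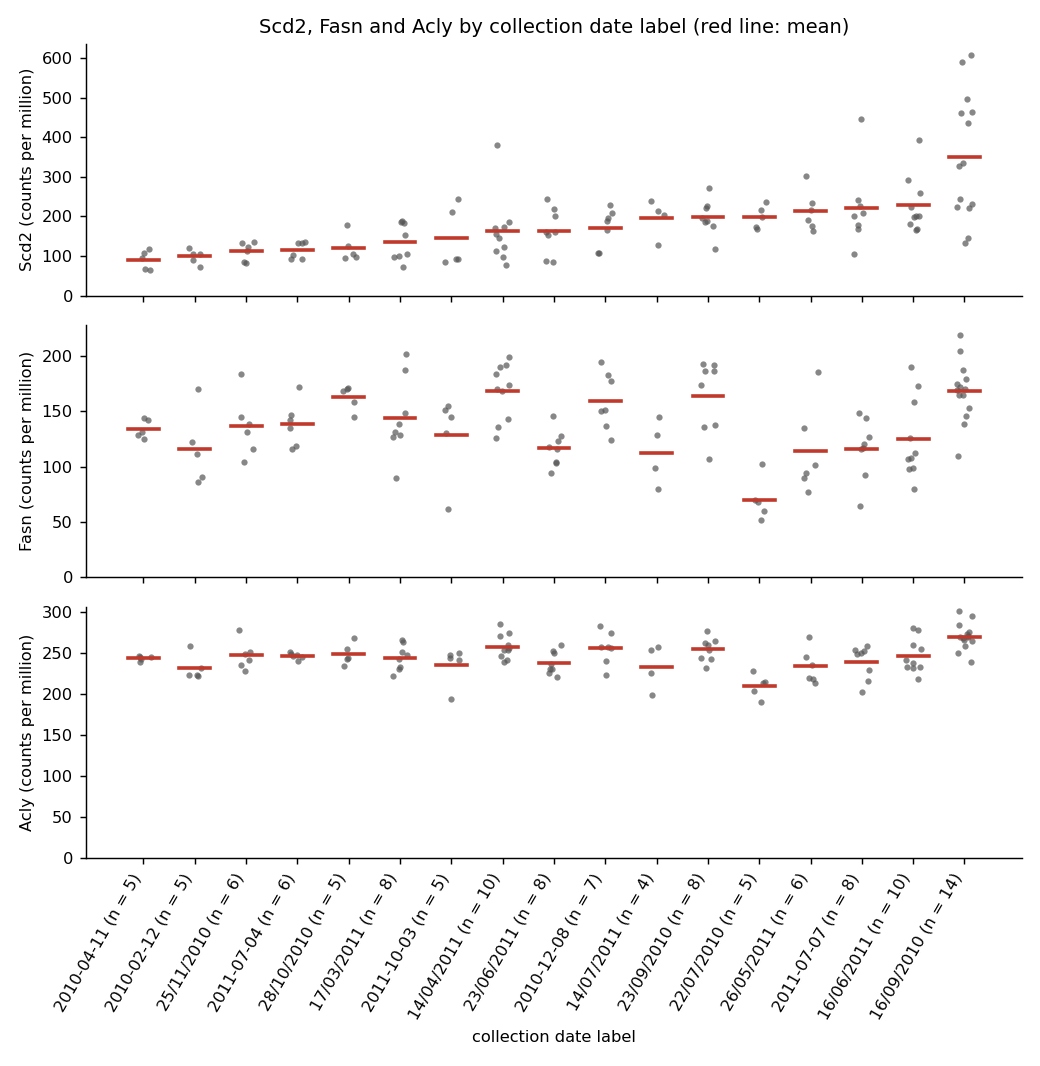
Scd2, Fasn and Acly in CPM in each library, by collection date label for the 17 labels with at least 4 libraries, ordered by mean Scd2; red lines are means. Scd2 peaks on 16/09/2010 and Fasn falls to its lowest mean, 70.1 CPM, on 22/07/2010.

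Pairs of members were compared over the 146 libraries after removal of plate and sex, on VST values, or on log2 CPM for the 9 pairs with Scd1. Of the 45 pairs, 36 had a positive Spearman rho and 9 a negative one, with a median of 0.348. A pair was called when each gene was associated with the other at an adjusted p under 0.05 in limma regressions over all genes, and 32 of 45 were. Since such associations were common among genes at large, from 18% of all genes for Fads2 to 68.2% for Fasn, that count by itself sets the members little apart. Acly was positively associated with 7 of 8 other members (59.2% of all genes, 29.5% positive and 29.6% negative). Elovl6 was positive with 7 (45% of all genes, 23.2% positive), Acaca with 6 (50.7%, 25.8% positive) and Elovl5 with 5 (42.5%, 21.5% positive). Fads1 was positive with 5 and negative with 1 (67.4%, 34.1% positive and 33.3% negative). Acss2 was positive with 3 and negative with 1 (48.2%, 23.3% positive and 24.9% negative), and Scd1 positive with 5 of 9 (51.9%, 26.1% positive). Over the 45 pairs, permutation p values (100000 permutations within plate, two-sided, Benjamini-Hochberg over the pairs) were under 0.05 for 31 by rho and 34 by Pearson r. The smallest p these permutations can give is 1e-05, which 21 pairs reached by rho. The permutations moved libraries across dates within a plate, so any likeness of libraries collected together is not covered, and rho with date removed is given for the pairs named.

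The closest pair was Scd1 and Scd2, with rho = 0.813 and r = 0.827 (permutation p = 1e-05 for both, n = 146). The rank correlation was 0.798 with date in place of plate, and it lay between 0.673 and 0.872 within the 6 larger plates. Without the 2 libraries farthest from the median of Scd1, r was 0.826. Within the 14 libraries of 16/09/2010 rho was 0.969. The neighbouring genes thus moved together on every plate although Scd1 was far less abundant. The part of reads from their shared stretches in this was not tested.

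Fasn and Acly were the closest pair of synthesis enzymes, with rho = 0.785 and r = 0.833 (permutation p = 1e-05, n = 146), 0.687 with date removed and 0.615 to 0.862 within the 6 larger plates. Fasn also varied with Fads1 (rho = 0.661, date removed 0.611), Acaca (0.659 and 0.617) and Elovl6 (0.622 and 0.483). The slopes of these genes differed in size. Per SD of Fasn, Elovl6 was higher by 0.19 ± 0.02 on the log2 scale, Fads1 by 0.13 ± 0.01, Acaca by 0.12 ± 0.01 and Acly by 0.09 ± 0.01 (SE, limma, adjusted p from 1.33e-32 to 6.46e-19). Among the 8 other members with VST values, 5 were positively and 1 negatively associated with Fasn, where 34.3% and 33.9% of all genes were.

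Scd2 was not among them. Fasn and Scd2 had rho = 0.125 and r = 0.114 (permutation p = 0.143 and 0.194), the sign turned with date removed (-0.109), and the pair was not called. Scd2 varied instead with Fads2 (rho = 0.686, date removed 0.623), Elovl5 (0.532 and 0.575) and Acss2 (0.523 and 0.53). Among the 8 other members 6 were positively associated with Scd2 and none negatively, where 48.8% of all genes were associated, 23.8% positively and 25% negatively. The members therefore read as 2 overlapping sets, a description made after their values were seen. Among Acaca, Fasn, Acly, Elovl6 and Fads1 the 10 pairs had a median rho of 0.615, from 0.332 to 0.785. Among Scd1, Scd2, Fads2, Elovl5 and Acss2 the 10 pairs had a median of 0.506, from 0.284 to 0.813. The 25 pairs between the sets had a median of 0.0989, from -0.298 for Fads1 with Acss2 to 0.536 for Elovl6 with Fads2.

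Fads2 joined the sets. All 8 other members with VST values were positively associated with it, where 9.25% of genes were positively and 8.71% negatively associated. Its rho was 0.517 with Acly and 0.412 with Fasn beside 0.686 with Scd2 and 0.632 with Scd1. Fads1, its neighbour on chromosome 19 and the later desaturase of the same branch, followed it only loosely (rho = 0.227, r = 0.24, permutation p = 0.00699 and 0.0036). That value was 0.123 with date removed, and it ran from -0.146 to 0.53 within the 6 larger plates. The 2 neighbouring pairs on chromosome 19 thus differed, Scd1 and Scd2 varying together and Fads1 and Fads2 much less. The difference between the 2 correlations was not tested.

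**Figure D3:**
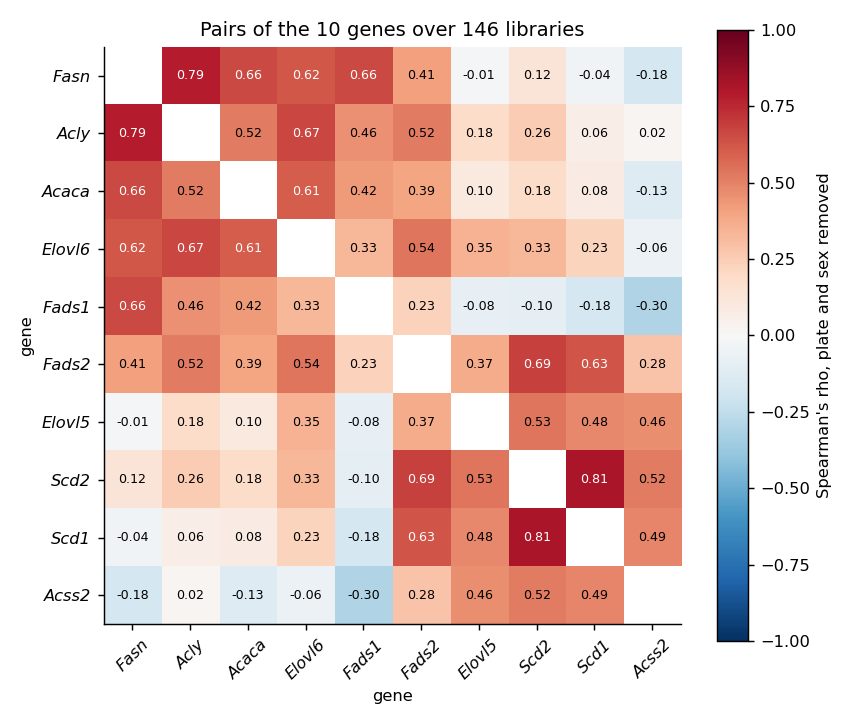
Spearman's rho for each of the 45 pairs over 146 libraries after removal of plate and sex, from -1 (blue) to 1 (red). Fasn, Acly, Acaca, Elovl6 and Fads1 form a block at the upper left and Elovl5, Scd2, Scd1 and Acss2 at the lower right, with Fads2 positive to all.

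**Figure D4:**
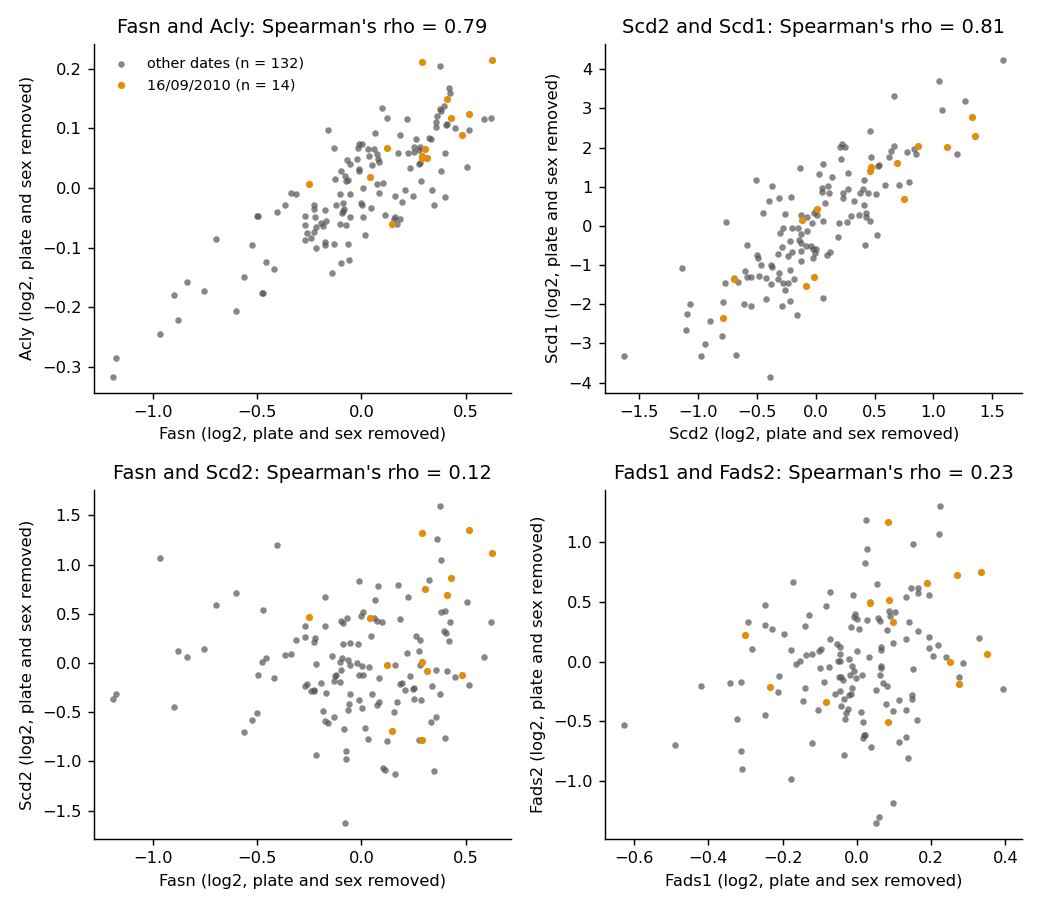
Levels of 4 pairs of genes with plate and sex removed, each point 1 library, in log2 units, with the 14 libraries of 16/09/2010 in orange. Fasn with Acly and Scd2 with Scd1 run along a diagonal, whereas Fasn with Scd2 and Fads1 with Fads2 spread into clouds.

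Several pairs across the split changed when a broad axis of variation was also removed. The first principal component of all other genes, with plate and sex removed, carried 21.6% of their variance. It ran in parallel with Fasn (r = 0.731) and Fads1 (0.714) and against Scd2 (-0.429) and Acss2 (-0.418), where the direction was set by Fasn. With this component also removed, Fasn and Scd2 had rho = 0.654, and the pair was called. The signs of Fasn with Scd1 (0.506), Fasn with Elovl5 (0.187), Scd1 with Fads1 (0.304) and Scd2 with Fads1 (0.317) turned positive, each called. In this setting 26.2% of all genes were associated with Fasn. Scd1 (r = -0.523, on log2 CPM) and Elovl5 (-0.224) also ran against the component. Removing a component that runs with 1 gene of a pair and against the other raises their correlation by arithmetic. The turned signs are therefore not a separate observation. Fads1 and Fads2 rose to rho = 0.421, while Scd1 with Scd2 stayed at 0.761 and Fasn with Acly at 0.707. The same component went with the summed mitosis genes (r = 0.632) and against the summed lymphocyte (-0.673), dendritic cell (-0.584) and granulocyte precursor markers (-0.39). The part of cell composition in it was not tested.

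Cholesterol biosynthesis genes, which SREBP2 drives, were associated with most members. Fasn was positively associated with 19 of 20 (34.3% of all genes), with a median rho of 0.747. Acly was positively associated with 19 of 20 (29.5% of all genes), with a median of 0.691. The median was 0.52 for Elovl6, 0.514 for Fads1, 0.401 for Fads2 and 0.399 for Acaca. It was 0.261 for Scd2, 0.233 for Elovl5, 0.0664 for Scd1 and 0.00449 for Acss2. Among those with the smallest p against Fasn were Fdft1 (squalene synthase, uncertain at 26.5% shared 50-base stretches), Acat2 (which makes acetoacetyl-CoA, uncertain at 39.1%) and Lss (lanosterol synthase). Their slopes per SD of Fasn were 0.38, 0.36 and 0.30 on the log2 scale. Tm7sf2, a sterol reductase, was the member of that list that did not pass (slope -0.03 ± 0.02, adjusted p = 0.13).

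Other genes of fatty acid synthesis followed Fasn in part. Among the 21 with VST values, 13 were positively and 1 negatively associated with it, where 34.3% and 33.9% of all genes were. Those with the smallest p were Aacs, which activates acetoacetate (slope 0.28), Mecr, a reductase of mitochondrial fatty acid synthesis (0.20), Fads6 (0.21) and Elovl1, an elongase of very long chains (0.08). With the first principal component removed 6 were positive and 4 negative, where 13.8% and 12.4% of all genes were. Among 13 regulators of lipid synthesis 7 were positive and 3 negative, beside the same 34.3% and 33.9% of all genes. Insig1, the sterol-regulated anchor of the SREBP complex, had a slope of 0.33, and Srebf2, which encodes SREBP2, 0.15. Mid1ip1, a partner of acetyl-CoA carboxylase (uncertain at 20.9%), had 0.15 and Mlx, the partner of the glucose sensor ChREBP, 0.08. Srebf1, which encodes SREBP1, was associated less steeply, at 0.04 ± 0.01 (SE, adjusted p = 0.00148).

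Genes that use or burn fatty acids were called in both directions with Fasn, as were all genes (34.3% positive and 33.9% negative). With plate and sex removed only, the counts with Fasn lie near those shares or rest on few genes. Of 16 genes of glycerolipid assembly 6 were positively and 5 negatively associated with Fasn, led by Lpcat3 (0.14), which loads polyunsaturated chains into phospholipid, Gpat4 (0.07), Lpin2 (-0.08) and Agpat2 (0.05). Of 16 fatty acid oxidation genes 7 were positive and 5 negative, led by Acadm (-0.05), Hadhb (-0.08), Cpt1a (-0.10), which admits fatty acids to mitochondria, and Acadl (0.05). Against Scd2 the same list had 3 positive and 8 negative, where 23.8% of all genes were positive and 25% negative. Against Scd1 it had 2 positive and 10 negative, where 26.1% of all genes were positive and 25.8% negative. Among 6 genes of NADPH supply 2 were positive with Fasn, Tkt (0.11) and G6pdx (0.05), and 1 was negative, Idh1 (-0.06). With the first principal component removed, 1 oxidation gene was positive and 8 were negative with Fasn (13.8% and 12.4% of genes).

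Of 10 LXR targets, 4 had a negative slope on Fasn and a positive one on Scd2 with both at an adjusted p under 0.05. The share of all genes with this pattern was not counted, so it is not shown to be particular to LXR targets. In 1 fit that held both genes as regressors, chosen after the data were seen, Pltp, a phospholipid transfer protein, was lower by 0.56 ± 0.04 per SD of Fasn and higher by 0.64 ± 0.05 per SD of Scd2 (log2 scale, SE, adjusted p = 4.26e-23 and 1.28e-21). Abcg1, a sterol exporter, had -0.49 ± 0.04 and 0.40 ± 0.05. Abca1, the other main exporter, had -0.36 ± 0.05 and 0.24 ± 0.05, and Arl4c had -0.18 ± 0.01 and 0.11 ± 0.02. Genes outside this list had such opposite slopes too, among them Idh1 (-0.07 and 0.10) and Acadm (-0.06 and 0.05). The difference of the slopes passed for 6 of 10 LXR targets, with Scd2 higher in 5 and Fasn higher in 1, Lpcat3, a share no higher than that of genes at large, since 73.1% of all genes passed that test, 70.9% were associated with Fasn in this fit and 58.6% with Scd2. Smpdl3a and Apoe were negative with both regressors (-0.09 and -0.10, -0.14 and -0.16) and Srebf1 positive with both (0.04 and 0.07). Fasn alone was negatively associated with 7 of the 10 (33.9% of all genes) and positively with 2 (34.3%). Scd2 alone was negatively associated with 3 (25%) and positively with 5 (23.8%). Of the 20 cholesterol genes 17 differed, 16 with the steeper slope on Fasn, and 6 of 8 mitosis genes differed, all with the steeper slope on Fasn. With the first principal component removed, 3 of the 10 LXR targets were negatively and 3 positively associated with Fasn, and all 20 cholesterol genes were positive, where 13.8% of genes were positive and 12.4% negative.

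**Figure D5:**
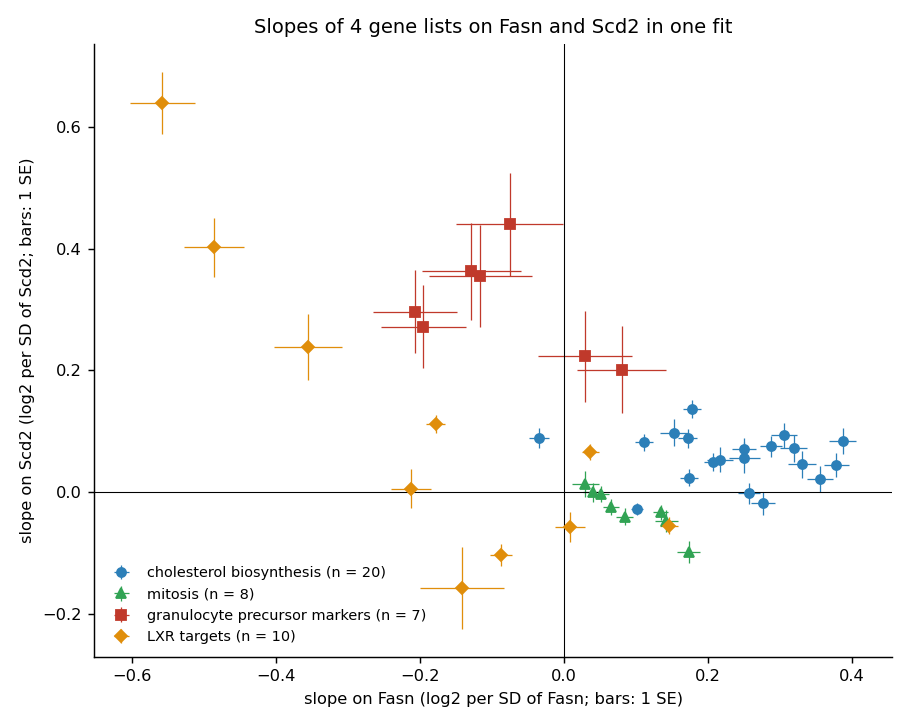
Slope of each gene of 4 lists on Fasn (x axis) and on Scd2 (y axis), in log2 units per SD of the regressor, from 1 fit with plate and sex; bars are 1 SE. Of the 20 cholesterol genes 19 lie to the right of 0, granulocyte precursor markers above 0, and Pltp, Abcg1 and Abca1 at the upper left.

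Markers of other cells moved with part of the members. All 7 granulocyte precursor markers in the VST table were positively associated with Scd2, and all 7 with Scd1, where 23.8% and 26.1% of all genes were positive. With Fads2 6 of 7 were positive (9.25% of genes) and with Elovl6 5 of 7 (23.2%), while 6 of 7 were negative with Fads1 (33.3%). With Fasn 2 of 7 were negative (33.9% of genes), S100a9 (-0.18) and S100a8 (-0.17), against none positive (34.3%). With the first principal component removed all 7 were positive (13.8% of genes). On the summed scale rho was 0.345 for Scd2, 0.321 for Scd1 and -0.325 for Fads1. Scd1 was also positively associated with 5 of 5 stromal, 4 of 5 lymphocyte and 3 of 5 dendritic cell markers, whose summed levels ran up to 68.1, 9.99 and 15.7 CPM. With the summed granulocyte precursor and stromal markers added as covariates after the data were seen, Scd1 with Scd2 had rho = 0.794, Scd2 with Fads2 0.638 and Fasn with Acly 0.802. Fads1 with Fads2 then had 0.36. Mitosis genes were positive with Fasn in 7 of 8 (34.3% of genes) and with Elovl6 in 8 of 8 (23.2%). They were negative with Scd1 in 5 of 8 (25.8%). Aurkb, Bub1, Plk1 and Mki67 led with slopes on Fasn of 0.13, 0.16, 0.14 and 0.08. With the first principal component removed 2 of 8 were positive with Fasn (13.8% of genes). Of 7 macrophage markers 2 were positive with Fasn (34.3% of genes), Mertk among them (0.14), and 3 were negative (33.9%), Adgre1 (-0.10) among them.

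Genes whose pattern was most like each member, outside the 10, came from rho over the same 146 libraries. For Fasn they included Fdft1 (0.845), Acat2 (0.821) and Lss (0.809), with Cmas (-0.759) and Tmem59 (-0.757) at the other end. Acly had Fdft1 (0.776), Fdps (0.775, uncertain at 26.2%) and Lss (0.77), with Tmem59 and Dstyk (-0.629 each) at the lowest. The genes named here as nearest to Fasn and Acly were thus enzymes of the cholesterol pathway. For Fads2 they included Mvd (0.649), Srebf2 (0.581) and Pmvk (0.573), with Rnf128 (-0.57) and Map4k3 (-0.535) lowest.

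Elovl6 and Acaca had near genes in common. Of the 20 cholesterol genes, 12 had a rho over 0.5 with Elovl6 and 1 with Acaca. Both had Cdca7, a cell cycle gene, first (rho = 0.73 for Elovl6 and 0.631 for Acaca), and both had Mlkl (0.699 and 0.588). Elovl6 also had Me2 (0.696), and Acaca had Lig3 (0.59, uncertain at 23.8%) and Tfdp1 (0.566). The lowest were Atp9b (-0.669) and Tcirg1 (-0.647) for Elovl6, Hsbp1 (-0.566) and Cmas (-0.561) for Acaca. Fads1 had Vac14 (0.698), Tmem97 (0.696, uncertain at 20.8%), Tbcd (0.694) and U2af2 (0.685), and Gid4 (-0.69) and Gbe1 (-0.687) lowest.

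No cholesterol enzyme was among the nearest genes of the remaining members. Scd1 had AB124611 (0.699), F5 (0.687), Clec2d (0.687) and Ifitm2 (0.673, uncertain at 48.5%), with Cpd (-0.708) and Aldh9a1 (-0.705) lowest. Scd2 had Utp14b (0.685), Tmsb10 (0.661, uncertain at 27%), Grb2 (0.64) and Nkiras2 (0.62). Scarb2, a lysosomal membrane receptor, was lowest for Scd2 at -0.778, with Havcr2 at -0.694. Elovl5 had Shoc2 (0.684), Appbp2 (0.64), Snx5 (0.628) and Arap2 (0.62), with Abr (-0.687) and Tle1 (-0.671) lowest. Acss2 had Sertad1 (0.594), Stk40 (0.577), Aldoc (0.562) and Rtf2 (0.561), with Pmepa1 (-0.601) and Adam10 (-0.586) lowest.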

How the data were processed

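Macrophage RNA was read as 100 bp paired ends. The submitters' processing notes list FastQC, TopHat2 2.0.11, HTSeq 0.6.1 and DESeq2 with GRCm38 (mm10). The deposited raw counts cover 22721 genes, and the authors' deposited log2 values from a variance-stabilising transformation (VST) cover 10893. Symbols came from GENCODE M21, which need not be the counting annotation. CPM are counts over the column sum.

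The 10 members and all lists were chosen with earlier results of these data known. Sex, plate and date were tested with edgeR 4.0.16 (TMM, filterByExpr, quasi-likelihood), associations with limma 3.58.1, regressing each gene on 1 member with plate and sex. The threshold was an adjusted p under 0.05. The labels do not state that each library is a separate mouse, so p values measure the spread between libraries. Genes that share 20% or more of their 50-base stretches with another gene are called uncertain. RefSeq promoter windows matched 7 of 10 members. Named genes are the members, the 4 highest and 2 lowest rho per member, and up to 4 per list by p against Fasn. A gene this rule names is not reported here. Abca1, Tm7sf2 and Srebf1 were added after their values were seen. On simulated counts for the sex test, 80% of 50 genes changed by 0.25 (log2) were recovered and 100% of those changed by 0.5. The SE of the fitted log2 sex difference ran from 0.018 for Acly to 0.285 for Scd1, with 0.101 for Scd2. Recovery at each member's own spread was not tested. Alternatives included DESeq2 1.42.0, limma voom, other covariates and libraries left out.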

Additional observations from a re-analysis of the deposited data

Results flagged for a closer look

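Within each plate or date of 4 to 10 libraries, the highest and the lowest library were compared with the rest. Of 170 such tests, 23 found a library apart from the others. Chance gives about 1 in 20 only for normally spread values and separate tests. Scd1 CPM is skewed (mean 2.62, median 1.31), and the same library can be flagged for several genes. The count of 23 is therefore not measured against chance. On plate 1, male 7 was lowest in Fasn (51.9 CPM, next library 128), Elovl6 (12.8, next 25.5) and Fads1 (99, next 134). It was the 1 library of plate 1 from 22/07/2010, the date with low means of these genes, so this repeats that date's pattern. On 2011-10-03, male 37 was lowest in Fasn (61.6 CPM, next 130), Elovl6 (14.1, next 21.4) and Acly (194, next 242). The same library was highest in Scd1 (4.54 CPM, next 1.29) and Acss2 (33.9, next 20.4).

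On 2011-07-07, male 56 was highest in Scd1 (17.4 CPM, next 5.99), Scd2 (448, next 240) and Fads2 (36.6, next 22.2). On 14/04/2011, female 75 was highest in Scd1 (15.7 CPM, next 4.33) and Scd2 (380, next 186). Female 18 held the highest Scd1 of all libraries, 29.9 CPM, against 7.74 for the next library of 16/06/2011. Male 29 was highest in Scd1 on 2010-04-11 (1.67 CPM, next 0.452). Summed granulocyte precursor markers were 256.7 CPM in male 7, 313.4 in male 37, 476.8 in male 56, 208.9 in female 75 and 352.2 in female 18, and their part was not tested.

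Elovl5 was lowest in male 58 on 2011-07-07 (111 CPM, next 126) and in male 24 on 23/09/2010 (102, next 124). Elovl6 was highest in female 78 on 26/05/2011 (26.9 CPM, next 17.6) and in female 21 on 28/10/2010 (31.9, next 20), and female 21 was also highest in Fads2 (13.6, next 8.77). Fads2 was highest in female 25 on 22/07/2010 (15.1 CPM, next 10.2). Acss2 was highest in male 23 on 28/10/2010 (20.8 CPM, next 14.4), and Acly in female 53 on 2010-02-12 (258, next 231).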

How the results depend on the processing

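The count of members that differed by sex was 0. Adjusting for date instead of plate gave 2 (Elovl6 and Fads2; 4.91% of all genes), adjusting for lane within plate 2 (Elovl6 and Fads1; 7.25%), and leaving out plate 2 gave 1 (Elovl6, -0.191, adjusted p = 0.0135; 5.33%). The cause was not tested. Pairs whose sign turned and that were called had, with the first principal component removed and then with the first 5 removed, rho of 0.506 and 0.351 for Fasn with Scd1, 0.187 and 0.342 for Fasn with Elovl5, 0.304 and 0.412 for Scd1 with Fads1, and 0.317 and 0.453 for Scd2 with Fads1. Elovl5 with Fads1 turned to 0.367 with 5 removed. Of all genes, 26.2% were associated with Fasn with the first component removed and 27.6% with the first 5 removed. Per kilobase of the longest transcript in place of merged exons, means were 2.26 CPM for Acaca, 43.8 for Elovl5, 40.4 for Fads1, 55.7 for Acly and 5.90 for Acss2, since that length is shorter. By plate the count was 7 to 10 of 10 (54.2% to 77.5% of genes) and by date 9 or 10 (63.4% to 81.5%), with 9 without plate 2 (74.5%), where Acaca did not pass. Scd1 was not called by date within plate under limma voom (8 of 10 members, 62.1% of genes). Leaving out the libraries of 16/09/2010, and the marker covariates, were chosen after seeing the data. No paired analysis was possible because the replicate numbers follow accession order and pair no libraries. Depth limits Scd1 most.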
